A study of Homo sapiens with 6 samples.

Results

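Of the 6 samples of Capan-1 cells, an established human pancreatic duct carcinoma line, 2 carry the title V1 and 4 carry the titles V2 or V3. The V1 pair holds 1 mock-transfected and 1 p16-transfected sample, and so does each of the other V numbers. The comparison set out here is between the V1 arrays and the V2 and V3 arrays, with mock or p16 as a covariate; it is not the comparison of p16 with mock cells. V1 was selected from the values of these same 6 samples, which had already set it apart, so the V1 differences are given as a description without a test. Its members are the probe sets at log2 4 or above in at least 3 of the 6 samples and annotated to 1 gene, which were 21084 of 54675 probe sets and stood for 11658 of 19775 named genes.

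The p16 samples came from cells given full-length p16INK4a cDNA under the cytomegalovirus promoter of the pRC/CMV vector, which also carries neomycin resistance. Transfected cells were selected in hygromycin at 0.1 mg/ml and G418 at 1 mg/ml, and all cells were grown in RPMI medium with 15% fetal calf serum. The mock samples are labelled as mock-transfected without p16 restoration; the labels name no vector for them. Nor do they say what a V number stands for, whether samples came from separate cultures or clones, or on which day an array was made, so the spread between V2 and V3 may be technical. Labelling with biotin started from 300 ng of total RNA, and each sample went on 1 Affymetrix expression array.

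On such arrays a gene is read by 1 or more probe sets, each a group of short probes to a stretch of its transcript, usually toward the 3′ end. The standard labelling primes complementary DNA synthesis on the poly-A tail, so a labelled copy reaches probes near the 3′ end before those farther upstream. Manufacturers therefore add control probe sets to the 3′, middle and 5′ parts of a few transcripts. The dap, thr, phe and lys RNAs are polyadenylated bacterial transcripts added before labelling. The bioB, bioC, bioD and cre targets are added already labelled, at hybridization, and so pass through no labelling reaction. GCRMA, the authors' normalization, subtracts a background modelled on probe sequence and gives log2 levels, on which unexpressed probe sets sit below about 4.

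The labels of the V1 samples were read against genes chosen without them. CDKN2A, which encodes p16, had log2 levels of 5.61, 6.43 and 6.01 in mock V1, V2 and V3 and 12.12, 13.01 and 12.67 in p16 V1, V2 and V3. All 3 p16 samples thus lay above all 3 mock samples, V1 included. Among 206 probe sets below 4 in the mock and at 8 or above in the p16 samples of V2 and V3, the V1 pair had p16 above mock in 205 and met both limits in 169. The exception was a probe set of GTPBP2, a GTP-binding protein gene, at 2.43, 3.62 and 3.54 in mock and 2.26, 8.10 and 8.17 in p16 V1, V2 and V3. Among 288 probe sets with the opposite pattern, the V1 pair kept the order in 288 and met both limits in 224. Of the 22 pancreatic duct markers on the array, 13 were at 4 or above in all 6 samples, and CLDN18 and TFF1 were below 4 in all 6. KRT7, a ductal keratin, was at 13.71 to 14.26. The log2 summed level of the duct list was 17.45 to 17.57 in mock and 15.60 to 15.91 in p16 cells. Of the markers of other cells, 9 of 11 leukocyte genes (PTPRC among them), 9 of 10 endothelial genes (PECAM1 among them), 7 of 14 fibroblast genes (COL3A1 and DCN among them) and 10 of 15 acinar and endocrine genes (INS and PNLIP among them) were below 4 throughout. The log2 summed level of the leukocyte list was 9.98, 10.22 and 9.74 in mock and 10.90, 11.50 and 11.18 in p16 V1, V2 and V3. For the endothelial list it was 7.65, 8.90 and 8.17 in mock and 6.40, 6.31 and 6.31 in p16 cells. The fibroblast list had 12.49, 13.99 and 13.75 in mock and 10.62, 10.95 and 10.90 in p16 cells, with V1 the lowest array of each group.

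The V1 arrays stood apart on the control probe sets. The thr transcript, a labelling spike of the bacterium Bacillus subtilis, gave a 3′ minus 5′ difference of 5.10, 1.02 and 0.96 log2 in mock V1, V2 and V3 and of 6.19, 0.81 and 0.69 in p16 V1, V2 and V3. For dap the values were 3.62, 1.62 and 1.72 in mock and 4.598, 1.56 and 1.64 in p16 cells. For lys they were 3.14, 0.00 and -0.05 in mock and 3.45, 0.45 and -0.24 in p16 cells. On phe mock samples had 2.30, 1.26 and 0.35 and p16 samples 2.98, 1.16 and 0.46. Both V1 arrays lay above all V2 and V3 arrays on each of these 4 spikes, by at least 1 log2 within each group.

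**Figure D1:**
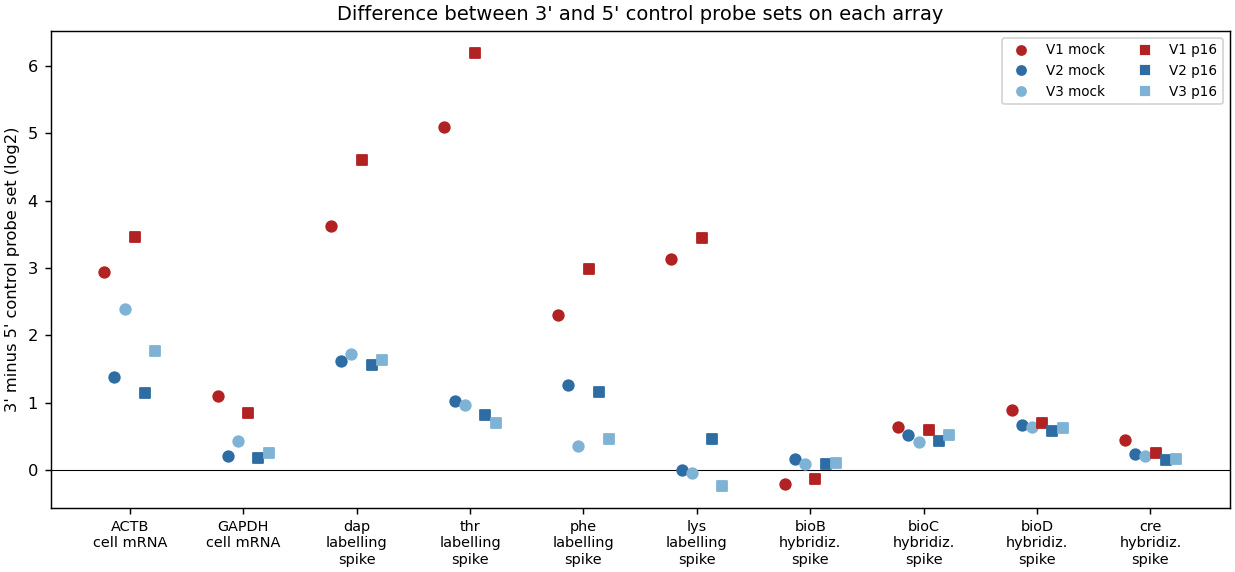
Difference in log2 level between the 3′ and the 5′ control probe set (vertical axis) for 2 cell transcripts, 4 labelling spikes and 4 hybridization spikes; each point is 1 array, circles are mock and squares p16, and colours mark V1, V2 and V3. The V1 points lie above the others for the cell transcripts and labelling spikes, for example 5.10 and 6.19 against 0.69 to 1.02 for thr, while the hybridization spikes differ by -0.28 to 0.16 between V1 and the mean of V2 and V3.

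Messenger RNAs of the cells showed the same order on their control probe sets. ACTB, cytoskeletal actin, gave 3′ minus 5′ differences of 2.94, 1.39 and 2.40 in mock and 3.46, 1.15 and 1.76 in p16 cells. The glycolytic enzyme gene GAPDH gave 1.10, 0.20 and 0.43 in mock and 0.85, 0.18 and 0.26 in p16 cells. V1 was above V2 and V3 in each group for both. On the hybridization spikes the 3′ minus 5′ difference of V1 from V2 and V3 was between -0.28 and 0.16, but the level itself was lower on V1 for all 9 sets in both groups, by 0.30 to 1.13 log2. Ribosomal RNA, which has no poly-A tail, went the other way in level, with V1 the highest array of each group on all 6 sets. The 3′ set for 18S ribosomal RNA read 14.03, 8.64 and 10.78 in mock and 13.78, 8.55 and 9.13 in p16 V1, V2 and V3, a V1 difference of 4.63. The middle and 5′ sets of 18S differed by 3.26 and 4.29, those of 28S by 0.34 and 0.87, and the 3′ set of 28S, at the floor, by 0.01. The 3′ minus 5′ differences of ribosomal RNA did not show that order: for 18S p16 V1 was at 0.79 and p16 V3 at 1.11, and for 28S V1 lay below V2 and V3 in both groups, by 0.86 on average. The part of these control differences in the gene differences that follow was not tested.

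Across probe sets and genes, V1 was the farthest from the others in each group. The Pearson correlation over the 21084 probe sets was 0.925 between mock V1 and V2, 0.935 between mock V1 and V3, and 0.987 between mock V2 and V3. In p16 cells the same pairs gave 0.932, 0.937 and 0.990. A second principal component of the same probe sets, with 17.8% of the variance, placed both V1 arrays on one side (0.57 and 0.58). The other arrays lay on the other side (-0.34 to -0.25), which is the pattern that led to the comparison. The median absolute difference of a gene between V1 and the mean of V2 and V3 was 0.51 log2 in mock and 0.47 log2 in p16 cells. Between V2 and V3 it was 0.24 log2 in mock and 0.16 log2 in p16 cells.

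A gene was taken as apart when V1 lay at least 1 log2 above both or below both of V2 and V3, on the same side in mock and in p16 cells. By this rule 614 genes were higher on V1, 5.27% of the 11658, and 555 were lower, 4.76%. Raised to 2 log2 the limit left 28 higher and 92 lower genes, so the far end of the distribution lay mostly on the low side. Of the lower genes, 8 had both V1 values below 4. A gene with all V2 and V3 values below 4 could not pass the filter, so the higher genes allow no such count. The limma fit of this contrast is no test, since the same values selected V1. It is given as a description of size against spread, and nothing is read from it: 2788 genes were higher (23.9%) and 1851 lower (15.9%) at an adjusted p of 0.05, 4639 in all (39.8%). Without mock V1 the fit gave 2393 genes and without p16 V1 it gave 2903. The median V1 difference over all 11658 genes was 0.11, against which the medians of gene lists are set below.

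The V1 differences ran in parallel in the 2 groups of cells. Of 2740 genes with a V1 difference of 1 log2 or more in mock cells, 2630 (96.0%) had the same sign in p16 cells, and the Pearson correlation of the mock with the p16 difference was 0.807 over 11658 genes. These pairs share no sample, but both come from the arrays on which the pattern was noticed, and genes are not independent replicates.

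**Figure D2:**
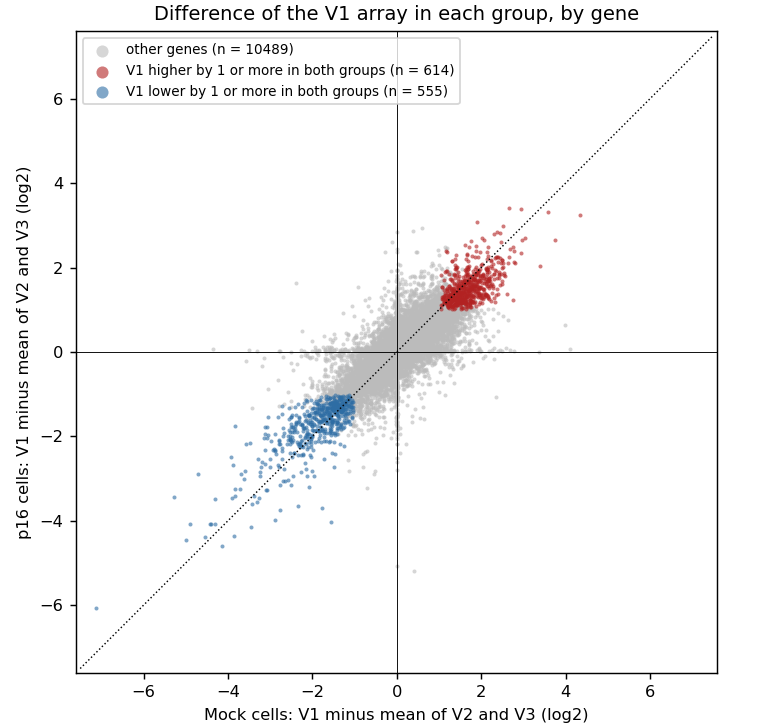
Difference in log2 level between the V1 array and the mean of the V2 and V3 arrays in mock cells (horizontal axis) and in p16 cells (vertical axis); each point is 1 of 11658 genes, red and blue are the 614 higher and 555 lower genes by the rule of 1 log2, and the dotted line marks equal differences. Points follow that line, and the lower tail reaches farther than the upper one, to -7.13 in mock and -6.07 in p16 cells for TGFB1.

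The gene farthest below on V1 was TGFB1, which encodes the cytokine TGF-beta 1, at 3.43, 11.005 and 10.12 in mock and 4.22, 10.74 and 9.84 in p16 V1, V2 and V3. Its single tested probe set was thus near the floor on both V1 arrays and well expressed on the 4 others. The difference was -6.60 (SE 0.42, 2 against 4 samples), or at least 79.7-fold with the value under 4 raised to 4. The SEs of V1 differences count the mock and p16 arrays of one V number as independent, although their deviations ran together. LYRM2, a small mitochondrial protein of the LYR-motif family, read 6.12, 11.19 and 11.05 in mock and 6.85, 11.15 and 11.46 in p16 cells, a difference of -4.73 (SE 0.18). ATP5PD, a stalk subunit of mitochondrial ATP synthase, read 8.85, 13.39 and 13.38 in mock and 9.88, 14.21 and 14.29 in p16 cells, a difference of -4.46 (SE 0.12). In both genes each V1 value lay at least 4.306 log2 below the lower of V2 and V3 of its group.

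The other genes among the 12 farthest below were TRAPPC1, a subunit of vesicle-tethering complexes (-4.50), the histone gene H2BC12L (-4.37), XYLT2, a xylosyltransferase that starts glycosaminoglycan chains (-4.36), and TLN1, the integrin adaptor talin (-4.25). CHAMP1, a chromosome alignment protein (-4.23), RHOB, a small GTPase (-4.19), the pseudogene SIMC1P1 (-4.10), the ubiquitin ligase component DDA1 (-3.90) and INHBC, an inhibin subunit (-3.80), completed them. Each V1 value of the 12 lay at least 2.78 log2 below the lower of V2 and V3 of its group. RHOB was also lower in p16 than in mock cells on every array, at 5.57, 9.74 and 10.01 in mock and 3.35, 7.39 and 7.46 in p16 V1, V2 and V3, and V1 was the lowest array of each group.

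Highest on V1 was TAF15, an RNA-binding protein of the FET family, at 12.70, 8.67 and 8.07 in mock and 11.74, 8.77 and 8.21 in p16 V1, V2 and V3. The difference was 3.79 (SE 0.33), or 13.9-fold, and V1 lay at least 2.97 log2 above every V2 and V3 array of its group. CTSZ, the lysosomal protease cathepsin Z, read 11.71, 9.02 and 7.23 in mock and 11.91, 9.16 and 8.02 in p16 cells, a difference of 3.45 (SE 0.57). Here V2 and V3 also differed, by 1.46. The nuclear long non-coding RNA MALAT1 read 15.10, 12.76 and 12.40 in mock and 14.17, 11.42 and 10.97 in p16 cells, a difference of 2.75 (SE 0.21).

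Further up the same list stood L3MBTL3, a chromatin reader (3.21), the ADP receptor P2RY1 (3.17), the imprinted gene ZDBF2 (3.03) and DTNA, a dystrobrevin (2.87). D2HGDH, a mitochondrial dehydrogenase of 2-hydroxyglutarate (2.81), C21orf91 (2.72), the phospholipid synthesis enzyme CEPT1 (2.65), PYM1, which disassembles exon junction complexes (2.64), and the elongation factor ELOF1 (2.63) followed. In P2RY1 the V2 and V3 arrays of both groups nearly coincided, at 8.29, 5.33 and 5.35 in mock and 8.85, 5.44 and 5.49 in p16 V1, V2 and V3. Genes often used as references moved little on their brightest probe sets: ACTB differed by 0.04 (SE 0.13) and GAPDH by -0.27 (SE 0.12).

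**Figure D3:**
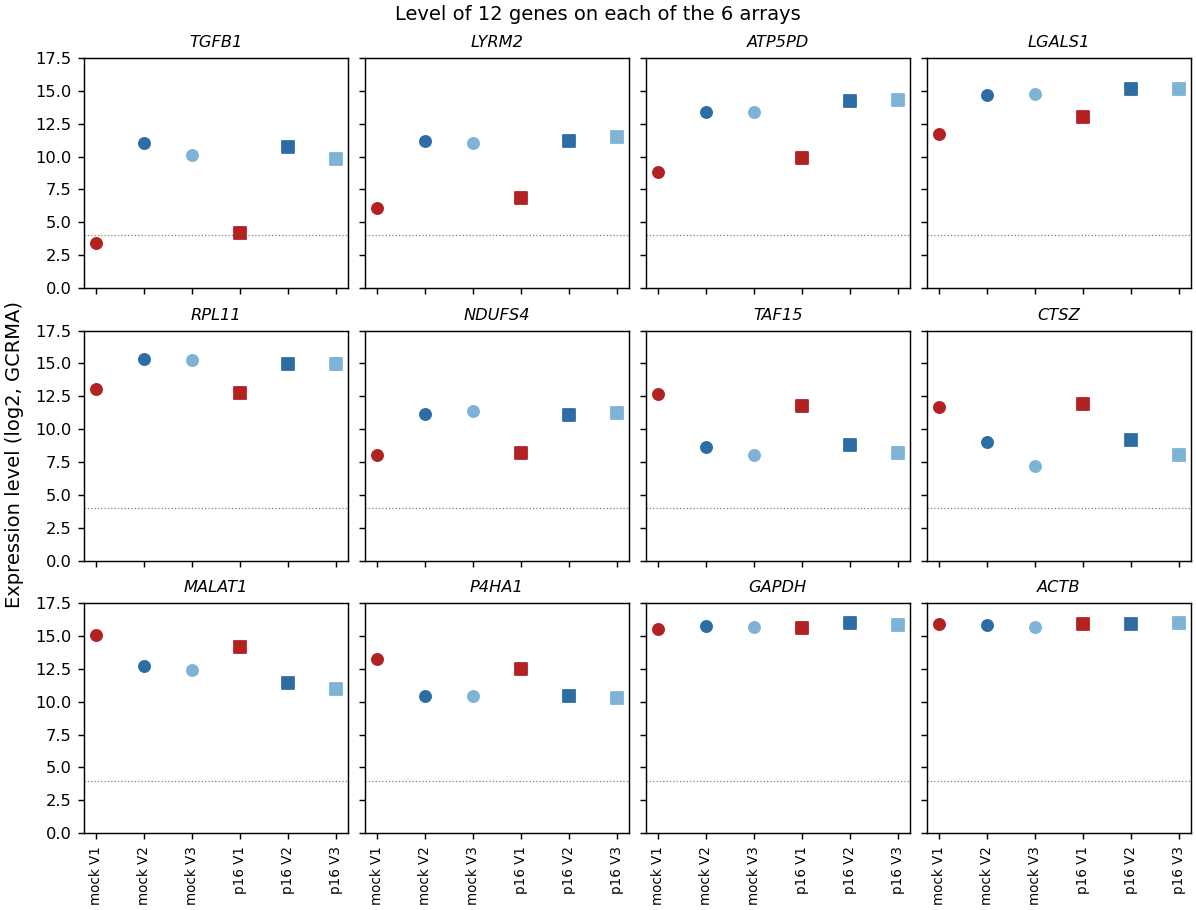
Log2 expression level (vertical axis) of 12 genes on each of the 6 arrays; circles are mock and squares p16 cells, red marks V1 and both blues V2 and V3, and the dotted line is the limit of 4. TGFB1 is at 3.43 and 4.22 on V1 against 9.84 to 11.005 elsewhere, TAF15 is at 12.70 and 11.74 against 8.07 to 8.77, and ACTB lies between 15.67 and 15.98 on all arrays.

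Genes of the mitochondrial respiratory chain, which carries electrons to oxygen in the inner membrane, were lower on V1 where they were apart. Of 36 tested, 7 were apart lower (19.4%, against 4.76% over all genes) and 0 higher, with a list median of -0.24. NDUFS4, a complex I subunit, read 8.06, 11.18 and 11.40 in mock and 8.18, 11.05 and 11.20 in p16 V1, V2 and V3, a difference of -3.09. NDUFV2, another complex I subunit, differed by -2.39, and the cytochrome oxidase subunits COX6C and COX7B by -2.07 and -2.05.

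Cytosolic ribosomal proteins gave a like count: of 32 tested, 7 were apart lower (21.9%) and 0 higher, with a median of -0.26. RPL11, a protein of the large subunit, read 13.08, 15.30 and 15.28 in mock and 12.73, 14.97 and 14.99 in p16 V1, V2 and V3, a difference of -2.23. RPL32 and RPL18 differed by -1.88 each and RPL19 by -1.57. In these 2 lists the V2 and V3 values of the named genes were nearly equal, while V1 lay 1.43 log2 or more below them.

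Replication-dependent histones are made in S phase and mostly lack a poly-A tail. Of 10 tested, 4 were apart lower (40%) and 1 higher (10%), with a median of -1.07. The lower ones were all H2B genes: H2BC9 at -3.48, H2BC6 at -2.83, H2BC5 at -2.53 and H2BC12 at -2.31. H2BC12, the brightest of them, read 11.42, 13.60 and 13.66 in mock and 9.31, 11.68 and 11.75 in p16 V1, V2 and V3. H2B genes are nearly identical in their coding sequence, so their probe sets may bind each other's messages, and the values are uncertain as single genes. Metallothioneins, small zinc-binding proteins that are close paralogs as well, were listed with zinc transporters. Of 16 tested, 5 were apart lower (31.25%) and 2 higher (12.5%), with a median of -0.72. MT1F, MT1X and MT1H differed by -1.70, -1.68 and -1.52, and the zinc importer SLC39A6 by 1.84.

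Galectins, S100 proteins and annexins had 21 tested genes, with a median of -0.38. Of these, 4 were apart lower (19.05%, against 4.76% over all genes) and 0 higher (against 5.27%). LGALS1, which encodes galectin-1, read 11.76, 14.71 and 14.78 in mock and 13.02, 15.12 and 15.16 in p16 V1, V2 and V3, a difference of -2.55 (SE 0.22). The calcium-binding S100A6, S100A11 and S100A13 differed by -2.13, -2.09 and -1.66. The integrin subunit gene ITGA5 had a difference of -1.31 (SE 0.21) but was 0.82 log2 below the nearer array in p16 cells, short of the limit, and ITGB1, its partner, differed by 0.31 (SE 0.14).

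Some lists had more apart genes on the higher side, with few genes in each. Of 35 tested hypoxia and glycolysis genes, 5 were apart higher (14.3%, against 5.27% over all genes) and 0 lower, with a median of 0.42. P4HA1, a collagen prolyl hydroxylase, read 13.22, 10.45 and 10.43 in mock and 12.47, 10.43 and 10.26 in p16 V1, V2 and V3, a difference of 2.45. HK2, which phosphorylates glucose, differed by 1.85, the enolase gene ENO2 by 1.64 and NDRG1 by 1.31. Targets of the YAP and TEAD regulators had 28 tested genes with 3 apart higher (10.7%) and 1 lower (3.57%) and a median of 0.57. The higher ones were AMOTL1 at 2.14, the kinase LATS2 at 1.74 and TEAD2 at 1.52, and LGALS1 was the lower one. Genes of the ATF4 response to amino acid shortage had 2 apart higher (6.25%, near the share over all genes) and 0 lower of 32 and a median of 0.43, with VLDLR at 1.87 and CEBPG at 1.36. The lysosome and autophagy list had 3 higher (9.4%) and 1 lower (3.1%) of 32 and a median of 0.40, led by CTSZ. Wnt targets and regulators had 2 higher (9.52%) and 0 lower of 21, with FZD7, a Wnt receptor, at 1.53 and DKK3 at 1.41.

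Lists of the cell cycle had shares near those over all genes or few genes apart. G1/S regulators, among which p16 acts, had 3 apart higher (10.7%) and 0 lower of 28: the pocket protein gene RBL1 at 2.19, the phosphatase CDC25A at 1.47 and E2F7 at 1.41. DNA replication genes had 0 higher and 3 lower of 44 (6.82%, against 4.76% over all genes): SLBP, which binds histone messages, at -1.80, RPA3 at -1.75 and RFC5 at -1.40. Mitosis genes had 2 higher and 0 lower of 43 (4.65% higher), ECT2 at 1.49 and ESPL1 at 1.33. NF-kB targets and chemokines had 2 higher (8.70%) and 4 lower (17.4%) of 23 and a median of -0.34, against 5.27% and 4.76% over all genes. Among them, NFKB2 was at -2.74 and RELB at -1.77, both subunits of the factor, while the chemokine CXCL16 was at 1.97 and TNFAIP3, a feedback inhibitor, at 1.79. TGF-beta targets had 2 higher (8%) and 3 lower (12%) of 25. Beside TGFB1 itself these were ID1 at -2.95 and SKI at -2.18 on the low side and LTBP1 at 1.70 on the high side. Immediate early genes had 2 higher (9.52%) and 3 lower (14.3%) of 21, with FOSL2 at 2.28 and FOSB at 2.01 against FOSL1 at -1.79 and EGR1 at -1.49.

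Over all 44 lists, which overlap, 28 medians were above 0 and 16 below, but by the median probe set of each gene it was 14 above and 30 below. For a gene with an even number of sets the median set is the lower of the middle ones, which favours lower values. Of the 44, 2 lists had fewer than 3 tested genes. Pancreatic duct markers had 0 apart higher and 1 lower (LCN2, 5%) of 20. No gene of the fibroblast, leukocyte, endothelial, acinar and endocrine, cholesterol synthesis, fatty acid synthesis or aldehyde dehydrogenase lists was apart on its brightest set, of 6, 1, 1, 5, 19, 17 and 16 tested. By the median set, 1 gene was apart lower in each of the cholesterol, fatty acid and aldehyde dehydrogenase lists. No list was tested as a set, and all were drawn up with earlier results of these data known. In a bulk sample, fewer cells of a type and less RNA per cell cannot be told apart.

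These counts depend on which probe set stands for a gene, because probe sets of 1 gene often differed in the V1 comparison. LAMP1, a glycoprotein of the lysosomal membrane, had 4 tested probe sets. Its brightest was higher on V1 at 15.78, 14.40 and 14.68 in mock and 15.63, 14.46 and 14.58 in p16 V1, V2 and V3, and 2 more were higher by 2.09 and 2.03. The remaining set read 2.45, 8.88 and 7.72 in mock and 4.28, 8.98 and 8.41 in p16 cells, a difference of -5.13. The same transcript name was thus apart in both directions on the same arrays.

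TAF15 showed the split too: the set that placed it first among the higher genes stood beside a second at 6.90, 8.82 and 8.77 in mock and 6.48, 8.51 and 8.32 in p16 V1, V2 and V3, a difference of -1.91. XYLT2 had -4.36 on its brightest set and 1.90 on the other. For DSG2, a desmosomal cadherin, the sets gave 1.66 and -3.03, and for PLAU, the urokinase protease, 1.37 and -2.00. MALAT1 had 12 tested sets, of which 4 were apart higher and 2 lower, from -2.34 to 4.19. ETV5, a transcription factor downstream of ERK, had 1 set higher and 2 lower of 4, with a range of -3.82 to 1.20, and ECT2 had 1 higher and 2 lower of 3. Genes placed lower had disagreeing sets too: LYRM2 had -4.73, -2.66, 0.82 and 0.17, S100A6 had -2.13 and 0.89, and DDA1 had -3.90 and 0.28. The second sets of ATP5PD and RPL18 differed by 0.03 and -0.07. Not every gene divided: both sets of the desmosomal PKP3 (-1.54 and -2.42), of the co-chaperone gene STIP1 (-1.39 and -4.62) and of H2BC5 (-2.53 and -2.22) were lower.

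**Figure D4:**
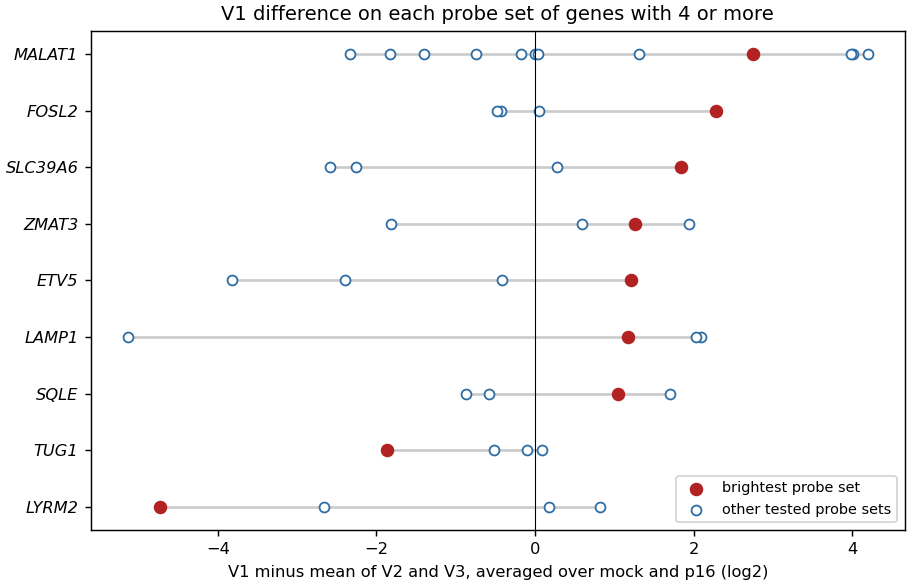
V1 minus the mean of V2 and V3, averaged over mock and p16 cells (horizontal axis, log2), for every tested probe set of the named genes with 4 or more tested sets; the filled point is the brightest set, open points are the others, and the grey line spans a gene's range. LAMP1 spans -5.13 to 2.09 and MALAT1 -2.34 to 4.19, so sets of 1 gene lie on both sides of 0.

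Over the 5626 genes with at least 2 tested probe sets, the brightest set was apart in 645. The second-brightest was apart on the same side in 105 of them (16.3%), on the opposite side in 34 (5.27%) and not apart in 506. Of all second sets, 14.3% were apart on either side, a share not to be set against the 16.3% on the same side alone. The sign of the difference was shared in 60.3% of the 645. For p16 against mock on the same arrays, the limit of 1 log2 was kept but the rule differed. Every p16 array had to lie at least 1 log2 above, or every one below, all mock arrays. By that rule 1093 genes had a brightest set apart. There the second was on the same side in 673 (61.6%) and on the opposite side in 1, and the sign was shared in 95.3%. The Pearson correlation between the differences on both sets was 0.140 for V1 and 0.832 for p16 against mock, and for V2 minus V3, whose differences were smaller, it was 0.184. With both sets at a mean of 8 or more (2684 genes) the V1 and p16 correlations were 0.192 and 0.872. With a plain _at suffix on both sets (1735 genes) they were 0.022 and 0.809. In all, 115 genes had sets apart on both sides, 25 had every set higher and 38 had every set lower. The balance of directions moved with this choice: 366 higher and 279 lower genes by the brightest set of these 5626, and 280 higher and 524 lower by the second. By the median probe set of each of the 11658 genes it was 304 higher and 836 lower, or 26.7% higher among those apart in place of 52.5%. Where a gene has an even number of sets, that choice takes the lower of the middle differences, so it favours the lower side. The part of this rule in the shift was not tested.

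By the median probe set the counts of the lists moved as well, beside 304 higher and 836 lower of all 11658 genes. Respiratory chain genes had 0 higher and 7 lower by that choice, ribosomal proteins 0 and 9, metallothioneins and zinc transporters 0 and 6, and galectins, S100 proteins and annexins 0 and 5. Hypoxia and glycolysis genes had 3 higher and 0 lower, with a median of 0.20 against -0.04 over all genes. Targets of YAP and TEAD had 0 higher and 3 lower and a median of -0.30, G1/S regulators 1 and 1 with -0.30, mitosis genes 0 and 4 with -0.29, and genes of the ATF4 response 1 and 3 with 0.03. The medians of the YAP and TEAD, G1/S and mitosis lists thus changed sign under this choice. The median of the ATF4 list did not. For genes with an even number of sets the choice takes the lower middle one, which favours lower medians.

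**Figure D5:**
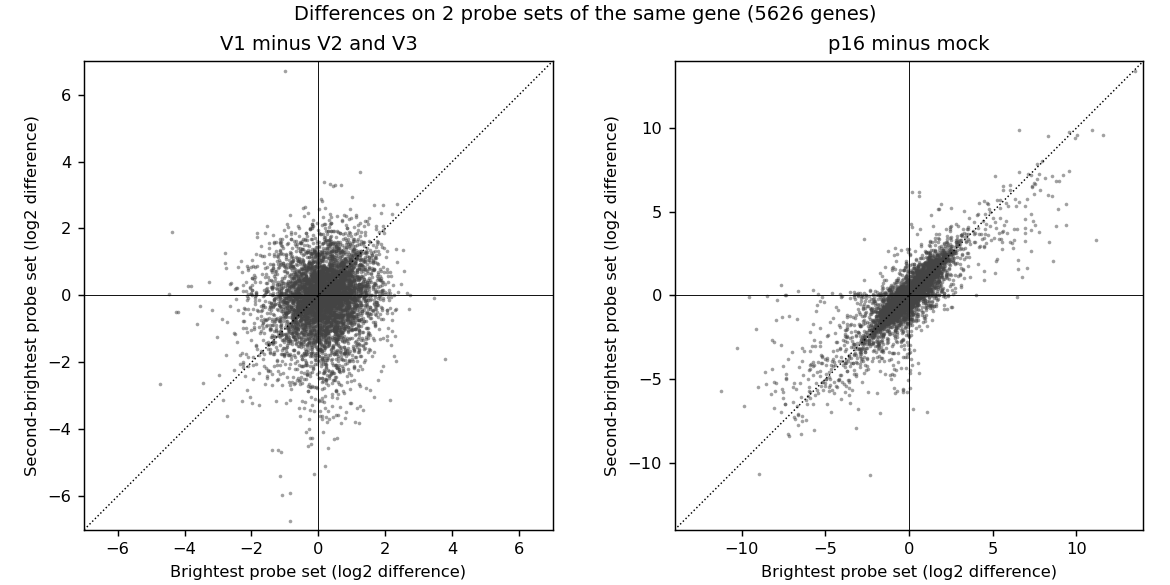
Log2 difference on the brightest (horizontal axis) and second-brightest (vertical axis) probe set of the same gene, for V1 minus V2 and V3 on the left and p16 minus mock on the right; each point is 1 of 5626 genes and the dotted line marks equal differences. The left cloud is nearly round (Pearson 0.140), and the right one follows the line (Pearson 0.832).

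Genes higher and lower on V1 differed in features that the rule did not use. The median genomic span, from first to last base of the gene with introns, was 46.7 kb for the higher, 17.3 kb for the lower and 29.8 kb for all tested genes, by RefSeq on GRCh38.p14. With genes ranked by span in 10 classes of equal size, the class of shortest spans had a median of 2.99 kb, and in it 2.32% were apart higher and 9.70% lower. In class 9 from the short end (median 115 kb) 8.84% were higher and 3.26% lower, and in the class of longest spans (median 234 kb) 6.18% and 3.004%, so the share of higher genes did not go on rising. The Spearman correlation of span with the V1 difference was 0.162 over 11647 genes, a weak relation across genes that share arrays. Promoter GC content differed little, with medians of 66.3% for higher, 64.3% for lower and 65.3% for all genes, and a Spearman correlation of 0.020 over 9572 genes. Probe sets with the suffix _x_at, which may bind several transcripts, made up 2.61% of the higher, 9.01% of the lower and 6.39% of all genes' brightest sets. Those with the suffix _s_at, shared by transcripts, made up 26.2%, 38.9% and 30.2%.

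Whether the V1 difference was of the same size in mock and p16 cells was tested by the interaction of V1 with group, which the choice of V1 did not use. At an adjusted p of 0.05 in limma, 0 of 11658 genes passed; 1027 (8.81%) had an unadjusted p under 0.05, and ordinary least squares without moderation called 8. With no filter on low values limma called 247 genes, of which 123 did not reach 4 in 3 samples. RRN3P1, a pseudogene, had the smallest p, at 9.12, 8.86 and 8.57 in mock and 2.12, 7.33 and 7.28 in p16 V1, V2 and V3, an interaction of -5.59 (SE 0.27, limma adjusted p 0.249). PRKX, a protein kinase, read 9.10, 4.89 and 5.09 in mock and 2.27, 2.24 and 2.16 in p16 cells, an interaction of -4.04 (SE 0.24, limma adjusted p 0.249). In both, 1 V1 array alone stood out. CLIC3, a chloride channel family member, gave 3.0035 (SE 0.21) and LRRC7, a synaptic scaffold protein, 2.84 (SE 0.20), with the same limma adjusted p of 0.249. CLIC3 read 3.27, 3.46 and 3.36 in p16 V1, V2 and V3, and LRRC7 read 2.43, 2.44 and 2.42 in mock V1, V2 and V3. In PRKX, CLIC3 and LRRC7, 1 group thus lay below 4 on every array, so the interaction rested on the V1 difference of the other group. The median absolute interaction was 0.28 log2 over all genes. Each group holds 1 V1 array, so the interaction rests on the spread between V2 and V3 alone.

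The V2 and V3 arrays were compared by the same model. At an adjusted p of 0.05, limma passed 0 of 11658 genes, with 1036 (8.89%) at an unadjusted p under 0.05, and ordinary least squares passed 0. The 2 smallest p-values belonged to centromere proteins. CENPT, of the inner kinetochore, read 5.90, 7.62 and 5.91 in mock and 5.93, 7.52 and 5.92 in p16 V1, V2 and V3, a V2 minus V3 difference of 1.65 (SE 0.13, limma adjusted p 0.429). CENPB, which binds centromeric satellite DNA, read 8.84, 10.09 and 8.80 in mock and 9.45, 10.74 and 9.41 in p16 cells, a difference of 1.31 (SE 0.13, limma adjusted p 0.429). In both genes the V2 arrays were high, and V1 lay with V3.

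The p16 against mock difference was carried by the V1 pair as by the others. Taken within V1 and within V2 and V3, which share no sample, it had a Pearson correlation of 0.966 over 11658 genes. Of 4945 genes with an absolute difference of 1 log2 or more in V2 and V3, 4928 (99.7%) had the same direction in V1.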

How the data were processed

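The authors deposited log2 expression values of 54675 probe sets on 6 arrays. The submitters' processing notes name GCRMA, without a version, as the tool; scanner files were not used here. Column medians were 3.11 to 3.19, and the number of arrays limits the precision. After 62 control probe sets were set aside, 41091 of 54613 probe sets had 1 gene in the platform annotation, 1801 had several and 11721 had none; the last 2 kinds entered no gene value. The 3322 tested probe sets without exactly 1 gene had 4.52% apart higher and 6.80% lower. No symbol differed from the RefSeq table, in which 54 gene identifiers were not found. At the filter's edge, the third-highest value of RNF19A, just inside, was 4.00044, and that of RTKN2, just outside, 3.99869.

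R 4.3.3 with limma 3.58.1 (two-sided, lmFit then eBayes) was used for the fits to 24406 probe sets, with Benjamini-Hochberg adjustment over all of them and a threshold of 0.05: V1 with group as covariate, the V1 by group interaction, and V2 minus V3 with group and V number. A gene is represented by the brightest of its tested probe sets, by the mean over the 6 arrays. Named genes are CDKN2A, GAPDH, ACTB, LGALS1, ITGA5 and ITGB1, the 12 largest differences each way among genes apart, up to 4 such genes per list (or the 2 largest differences where none was apart), and the smallest p-values of both tests; GTPBP2, SLPI, KRT7 and other cell markers were named for their values or role. The members and lists were chosen with earlier results of these data known. Deviations from the group mean ran together between samples of one number (correlations over probe sets 0.817, 0.757 and 0.674), so the numbers were taken as pairing them. V1 lying apart would give this too. The V1 fit has no term for this pairing, so its SEs count the mock and p16 arrays of one number as independent. The fits were tested on simulated data. Alternatives to the filter, scaling, variance model, probe set rule and samples were run. Python 3.11.15, pandas 2.3.3, numpy 2.4.6 and matplotlib 3.10.9 made tables and figures. One of the control transcripts is not reported here.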

Additional observations from a re-analysis of the deposited data

Results flagged for a closer look

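SLPI, a secreted inhibitor of leukocyte proteases, was the 1 gene with V1 at least 1 log2 beyond both V2 and V3 in opposite directions in the 2 groups, which is why it is given here. It read 11.17, 13.64 and 13.44 in mock and 5.38, 4.35 and 3.16 in p16 V1, V2 and V3. V1 was lower in mock cells (-2.38) and higher in p16 cells (1.63), an interaction of 4.002 (SE 0.77), which did not pass the test over all genes (limma adjusted p 0.286). The p16 V3 value lies below 4, and the p16 V2 and V3 arrays differ from each other by more than the p16 V1 and V2 arrays do.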

How the results depend on the processing

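The 4639 genes of the V1 fit became 392 without the mock or p16 covariate, 2676 by ordinary least squares and 2309 of 5626 by the second-brightest probe set (an alternative chosen after seeing the data, as were the narrower pairs of probe sets), and 2393 to 4174 when each sample was left out in turn. A replicate block by V number gave 4897 genes, of which 4459 were among the 4639 (V2 against V3 already holds the number). The share higher among called genes was 60.1%, but 41.2% by the median probe set and 43.8% by the second-brightest. With an even number of sets, the median probe set is the lower of the middle ones, which favours lower values. The 1169 genes apart became 3271 at a limit of 0.5 log2 and 120 at 2 log2; the filters, quantile normalization and median centring gave 1095 to 1187. The interaction's 0 genes became 247 without the filter and 8 by ordinary least squares, and it could not be fitted without either V1 sample; V2 against V3 gave 0 under every alternative run. Among the named genes that were apart, 18 changed sign under the median probe set: CTSZ to -0.065, C21orf91 to -0.41, DSG2 to -3.03, FOSL2 to -0.43, ETV5 to -2.40, SAMD9 to -0.97, CFI to -1.53, CEBPG to -1.61, SLC39A6 to -2.25, GCLC to -0.00090, RBL1 to -1.05, CDC25A to -1.14, ECT2 to -1.69, POLR1C to -0.30, AMOTL1 to -0.37, LATS2 to -0.10, FZD7 to -0.029 and PLAU to -2.00. All 18 went from higher to lower. For a gene with 2 sets this choice takes the lower difference, so a lower gene with 2 sets could not turn. Neither quantile normalization, median centring nor the loss of 1 sample turned the sign of a named gene that was apart. By the median probe set 14 list medians were above 0 in place of 28. The causes were not tested beyond the smaller number of genes or samples that some alternatives hold. The 2 V1 samples set the precision, and a probe set near 4 has little room to show a lower level.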
